A study of Mus musculus with 12 samples.

Results

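The genes described here encode the subunits of voltage-gated sodium and calcium channels, measured by RNA sequencing in mouse piriform cortex, the olfactory area of the cortical mantle. Members were all genes of the count table whose symbol is that of a sodium channel alpha or beta subunit (Scn, a number, then a or b), a calcium channel pore subunit (Cacna1), an alpha2delta subunit (Cacna2d) or a calcium channel beta subunit (Cacnb). They number 31 of 48795 genes. The study compared 6 mice carrying 1 Q140 knock-in copy of Htt (heterozygotes) with 6 wild types. The Q140 allele places an expanded CAG repeat in the huntingtin gene itself and models Huntington's disease. All 12 animals were on a C57BL/6 background and 12 months old, with 3 males and 3 females of each genotype, and the labels name no treatment. Each library is a separate animal. The animals' names carry prefixes whose meaning the labels do not state, and most wild types (4 of 6) share one that only 1 Q140 animal has.

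Voltage-gated sodium channels open on depolarization and carry the rising phase of the action potential. Their large alpha subunit forms the pore, and small beta subunits, single-pass proteins with an immunoglobulin fold, set its surface level and gating. Voltage-gated calcium channels turn depolarization into calcium entry. Their pore-forming subunits fall into the Cav1 family (L-type currents, coupled to gene expression and dendritic signalling), the Cav2 family (P/Q-, N- and R-type currents, which drive transmitter release) and the Cav3 family (T-type currents, which open near rest and support bursts). The alpha2delta and beta subunits bring Cav1 and Cav2 pores to the membrane and tune their gating.

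Total counts ran from 19587208 to 35198602 reads per animal, and a count of 0 allows up to 0.153 CPM (counts scaled to a common library total) in the shallowest library (3 counts, counting error only). Htt fell by 0.37 in log2 units (SE 0.0428, edgeR adjusted p = 0.000203). The composition factors used for scaling (TMM) lay between 0.97 and 0.996 in wild types and between 0.998 and 1.03 in Q140. This separation had an exact permutation p of 0.00216, the smallest that 6 against 6 can give, and 0.0151 adjusted over 14 such measures. Wild type 3 had little meningeal RNA (37.1 CPM summed over 12 fibroblast markers, against 141 to 481 in the other wild types). Wild type 6 had the lowest sum of 14 striatal neuron markers (670 CPM). Results that rest on them are given with and without them. The excitatory neuron markers that define cortex, such as Slc17a7, had reads in both genotypes, and their sum was at least 5966 CPM in every library.

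Levels per length are given as FPKM (reads scaled by gene length and by the total of the library), averaged over the 12 animals. The calcium channel beta subunit gene Cacnb3 (85.7) and the sodium channel beta subunit gene Scn2b (61.2) were among the most abundant members. Among sodium channel pores the adult neuronal gene Scn8a stood highest of the members, at 26.8 FPKM, ahead of Scn1a (16.3) and Scn3a (7.16). Its share of the summed alpha subunit FPKM was 30.6 ± 1.06% in wild types and 29.7 ± 0.835% in Q140 (SD, n = 6 each). The gene of the pore Nav1.2 stands in the table under the older symbol Scn2a1, so the naming rule leaves it out. It took 40.3 ± 1.08% of the same sum in wild types. The 3 Cav2 genes were close to one another, at 20.7 FPKM for Cacna1a, 18.6 for Cacna1e and 17.4 for Cacna1b. In wild types their ranges overlapped from one gene to the next. Cacna1d (8.13) and Cacna1c (6.76) made up nearly all of Cav1. Cacna1h (12) and Cacna1i (11.3) led Cav3, and their ranges overlapped. Cacna2d1 (22.2) led the alpha2delta genes. Some pores of muscle, sensory neurons and retina were near the floor. Scn4a, the skeletal muscle channel, had 5 reads over the wild types and 4 over the Q140 animals. Scn11a, of pain-sensing neurons, had 12 and 13. Cacna1f, of the retina, had 59 and 41. These 3 genes did not pass the expression filter and were not tested.

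**Figure D1:**
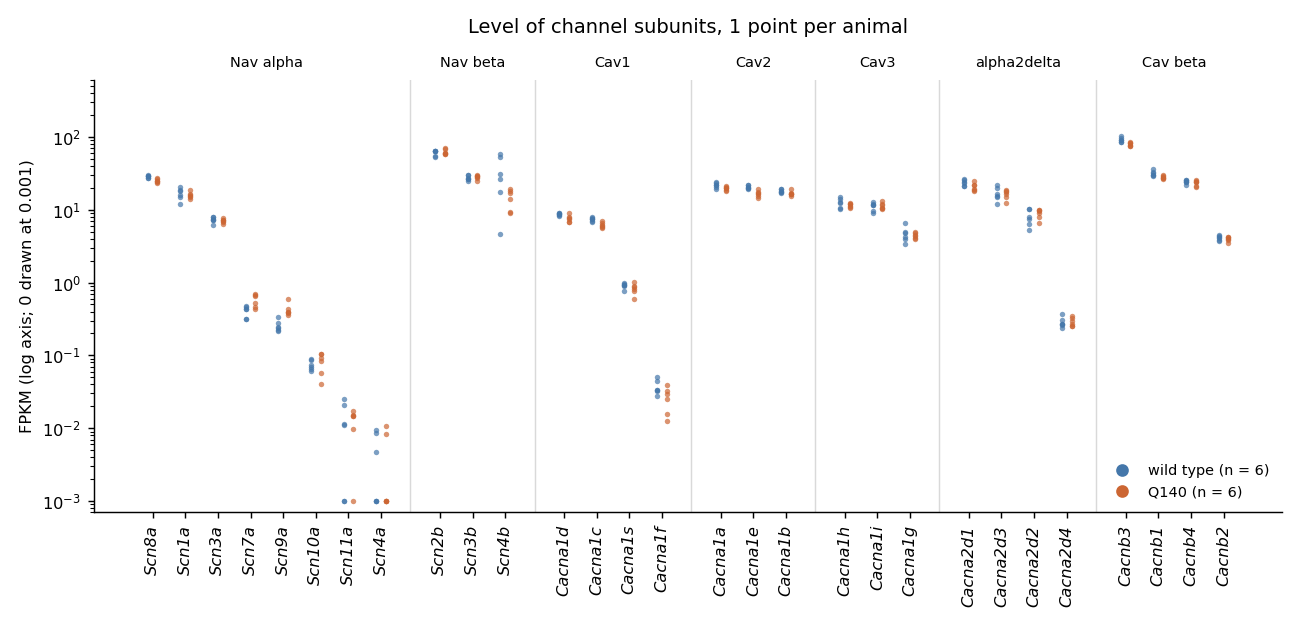
Level of the subunits described, in FPKM on a log axis, 1 point per animal, wild types in blue and Q140 in orange, ordered by class and by mean level. Levels run from Cacnb3, at 85.7 FPKM on average, down to genes with a few reads. The wild types of Scn4b are spread more widely than those of the other abundant members.

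Q140 cortex held less RNA for the main L-type, R-type and P/Q-type calcium channel pores and for the sodium channel pore Scn8a. It also held less for Cacnb3 and Cacnb1, the calcium channel beta genes highest per length (FPKM). Of the 28 subunits tested, 7 were lower in Q140 by edgeR's quasi-likelihood test (adjusted p under 0.05 over all 17725 genes tested), namely Scn8a, Cacna1c, Cacna1d, Cacna1e, Cacna1a, Cacnb1 and Cacnb3. Another 2, Scn9a and Scn7a, were higher, and 19 did not pass. Over all genes tested 6.69% were lower and 4.5% higher, or 1185 and 797 genes. On library totals alone, without the composition factor, this split was 822 and 1624 genes, while the subunits gave 6 lower and 2 higher. The median log2 fold change of the subunits was -0.13, against 0 over all genes, and 24 were negative in sign and 4 positive. Falls were modest, between 11.9% and 21%. In 4 of the 7, Cacna1e, Cacna1c, Scn8a and Cacnb1, every Q140 animal lay below every wild type, and in Scn9a every Q140 animal lay above, against 2.7% and 1.88% of all genes that separated downward and upward.

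**Figure D2:**
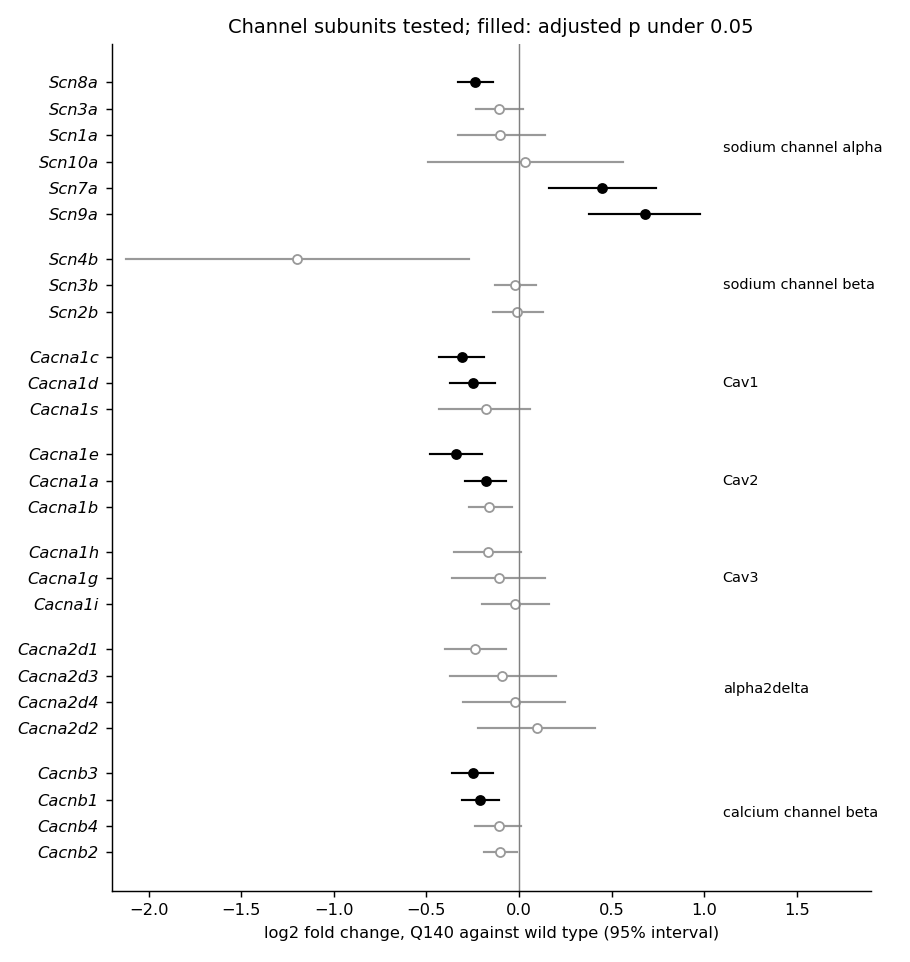
Log2 fold change of Q140 against wild type for tested subunits, grouped by class, with 95% intervals; filled points passed the threshold. Most points lie left of 0, Scn9a and Scn7a lie to the right, and Scn4b has the lowest value and the widest interval.

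The sodium channel pores moved in both directions. Of 7 tested alpha subunits 1 fell, 2 rose and 4 did not pass. Scn8a, the gene of Nav1.6, the main channel of the axon initial segment in adult neurons, had 437, 460 and 485 CPM as its lowest, median and highest wild type values. In Q140 these were 359, 389 and 417 CPM, so the genotypes did not overlap. The group means were 458 ± 17.5 and 388 ± 22.2 CPM (SD, n = 6 each), and the fit gave -0.24 on the log2 scale (SE 0.0443, adjusted p = 0.00414 by edgeR).

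Scn9a and Scn7a rose from low levels. Scn9a encodes Nav1.7, best known from peripheral sensory and sympathetic neurons and present in olfactory pathways. Its wild type values had a minimum of 2.79, a median of 3.12 and a maximum of 4.43 CPM. The Q140 values were 4.65, 4.91 and 7.35 CPM, and again no animal overlapped. Its mean went from 3.33 ± 0.609 to 5.35 ± 1.02 CPM, and the fit gave 0.68 on the log2 scale (SE 0.14, adjusted p = 0.00758 by edgeR). Without Q140 animal 5, the highest, the value was 0.57 (adjusted p = 0.00903).

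Scn7a encodes Nax, an atypical family member that responds to extracellular sodium and is found in glia and other non-neuronal cells as well as in some neurons. Its wild type values ran over 2.39, 3.21 and 3.65 CPM and those of Q140 over 3.22, 4.25 and 5.02 CPM, with overlap. This was a log2 difference of 0.45 (SE 0.137, adjusted p = 0.0478 by edgeR), and all 6 Q140 animals lay above the wild type mean. This call passed in 14 of 27 alternative analyses, and without any 1 of Q140 animals 2, 4, 5 and 6 or wild types 1 to 5 it was lost, with values of 0.37 to 0.48. Markers of meningeal fibroblasts were positive in sign in 12 of 12, with 0 past the threshold. Their sums were 37.1 to 481 CPM in wild types against 190 to 503 CPM in Q140 (exact permutation p = 0.327, adjusted 0.352). Of oligodendrocyte and myelin markers 6 of 14 rose, with sums of 3842 to 5415 CPM in wild types against 4373 to 6228 CPM in Q140 (exact permutation p = 0.104, adjusted 0.158). Of astrocyte markers 2 fell, 1 rose and 9 did not pass. Their mean sum was lower in Q140, at 6460 ± 682 CPM against 7290 ± 628 CPM in wild types (exact permutation p = 0.0606, adjusted 0.121). None of the markers in these lists was at 0 in any group, and their part in the rise of Scn7a was not tested.

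Other sodium pores did not pass. Scn1a, the channel of fast-spiking interneurons, and the early-expressed Scn3a were at -0.10 and -0.11, and Scn10a, of sensory neurons, was at 0.03 (95% interval -0.49 to 0.56), with 83 reads in wild types and 92 in Q140. Scn2a1, outside the naming rule and chosen here because it is the main remaining alpha subunit, had 487 ± 27.4 CPM in wild types against 419 ± 44.4 CPM in Q140. Its log2 fold change was -0.22 (SE 0.066, edgeR adjusted p = 0.0478). It passed in 10 of 27 alternative analyses.

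Taking sodium channel genes only, Scn3a, Scn2a1, Scn1a, Scn9a and Scn7a lie in this order on chromosome 2 (GENCODE on GRCm38). The gap between Scn2a1 and Scn1a is 503.3 kb, and genes of other families between them were not examined. Scn9a (66480080 to 66634962, minus strand) and Scn7a (66673425 to 66784914, minus strand) are neighbours in this order, 38.5 kb apart. Scn1a lies 39.2 kb on the other side of Scn9a. The members of this row that rose were thus adjacent in this order and next to Scn1a, which was negative in sign. The non-member Scn2a1 of the same row was lower (-0.22). Scn8a lies on chromosome 15 (100869858 to 101045938, plus strand). Of the exon bases of Scn9a, 1.4% are shared with Gm13629, an antisense gene. Gm13629 had a log2 fold change of -0.04 (adjusted p = 0.936). The strand setting of the counting is not given in the sources used here.

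The sequences just before RefSeq transcription starts of 4 members are shown so that starts of subunits that fell can be seen beside those that rose. The pairs were chosen after the expression values were seen: the adjacent Scn9a and Scn7a, which rose, and Scn8a and Cacnb1, which fell without overlap. They are RefSeq promoter windows (GRCm38.p6), up to 250 bases before the start and cut where an annotated exon begins, written 5′ to 3′ on the gene's strand. Capitals mark CpG dinucleotides. Scn8a and Cacnb1 have 2 windows each, of which the one with more CpG is shown, so the contrast is partly one of choice. The windows of Scn9a and Scn7a also abut the GENCODE genes, whereas those of Scn8a and Cacnb1 lie inside them. The GENCODE genes begin further upstream, at 100869858 for Scn8a and 98023034 for Cacnb1, so the windows are not alike in position.
Scn9a (chr2:66634963-66635212, minus strand): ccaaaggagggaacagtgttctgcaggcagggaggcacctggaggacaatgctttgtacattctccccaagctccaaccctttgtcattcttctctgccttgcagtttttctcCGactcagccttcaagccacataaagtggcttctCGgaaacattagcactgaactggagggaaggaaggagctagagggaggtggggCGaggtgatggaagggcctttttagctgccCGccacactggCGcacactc
Scn7a (chr2:66784915-66785160, minus strand): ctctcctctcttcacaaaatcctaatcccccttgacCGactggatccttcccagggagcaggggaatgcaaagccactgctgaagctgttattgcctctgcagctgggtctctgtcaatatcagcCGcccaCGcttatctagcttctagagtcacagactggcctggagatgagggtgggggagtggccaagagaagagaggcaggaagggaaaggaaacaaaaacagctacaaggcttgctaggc
Scn8a (chr15:100870395-100870644, plus strand): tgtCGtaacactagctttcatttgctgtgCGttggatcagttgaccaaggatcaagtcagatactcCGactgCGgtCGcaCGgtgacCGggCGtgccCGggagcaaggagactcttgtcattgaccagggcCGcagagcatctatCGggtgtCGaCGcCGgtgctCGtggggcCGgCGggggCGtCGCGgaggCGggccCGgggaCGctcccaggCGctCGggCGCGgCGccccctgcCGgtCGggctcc
Cacnb1 (chr11:98022635-98022877, minus strand): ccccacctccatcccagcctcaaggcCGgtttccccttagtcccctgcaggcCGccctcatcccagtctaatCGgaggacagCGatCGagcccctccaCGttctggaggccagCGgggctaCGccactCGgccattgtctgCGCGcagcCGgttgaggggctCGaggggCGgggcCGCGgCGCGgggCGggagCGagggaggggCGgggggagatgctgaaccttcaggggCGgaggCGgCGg

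The windows of Scn9a and Scn7a hold 5 and 3 CpG, and those of Scn8a and Cacnb1 shown here 30 and 24. Over all 32851 RefSeq windows in the table the median was 6 in 250 bases, and over the 32 windows of the 23 members that matched it was 8.5. Some windows of genes that fell also hold few. The only window of Cacna1e, which fell, lies inside annotated exons and holds 6 CpG, and the other window of Cacnb1 holds 1. The GC box letters GGGCGG, searched on both strands, occur 5 times in the Cacnb1 window, once in that of Scn7a, and in neither Scn8a nor Scn9a. They were found in 13 of 32 member windows and in 32.7% of all windows. TATAAA was in 1 member window (12.4% of all), and TGACGTCA (1.5% of all) and CACGTG (6.0% of all) were in 0. Of these letters all but TATAAA include a CpG and so count in both tallies. These are matches of letters only.

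The sodium channel beta subunits gave no call. Of 4 tested, 0 fell and 0 rose, and 2 had an unadjusted p under 0.05, against 4728 of all 17725 genes. Scn2b and Scn3b were at -0.01 (95% interval -0.14 to 0.13) and -0.02 (-0.13 to 0.09).

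Scn4b, whose product supplies the blocking particle of resurgent sodium current and which is abundant in striatal projection neurons, had the lowest fold change of any member but did not pass. The wild types 1 to 6 had 154, 262, 133, 88.0, 287 and 23.7 CPM. The Q140 animals 1 to 6 had 84.6, 88.3, 66.9, 95.6, 44.7 and 43.3 CPM. Wild type 6 thus lay below every Q140 animal, while 4 of the other wild types lay above all of them. The fitted log2 ratio was -1.20 (SE 0.433, adjusted p = 0.0936 by edgeR). With no expression filter the adjusted p was 0.0174. Without wild type 6 the log2 ratio was -1.49 (SE 0.265, edgeR adjusted p = 0.00402), and without wild types 3 and 6 it was -1.69 (adjusted p = 0.00256). The omission of both was chosen after seeing the data. Wild type 6 was the lowest wild type, so leaving it out raises the wild type mean. Scn4b passed only in these 3 of 27 alternative analyses, and its log2 fold change ran from -1.69 to -0.57 over all 27.

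The level of Scn4b went with that of striatal markers from animal to animal. The animal with the lowest Scn4b, wild type 6, also had the lowest striatal sum (670 CPM over 14 markers). Wild types 2 and 5, highest in Scn4b, had the highest sums, at 2150 and 2280 CPM. Q140 animals 5 and 6 followed wild type 6 at the low end in both, with sums of 902 and 881 CPM. The sums ranged from 670 to 2280 CPM in wild types and from 881 to 1501 CPM in Q140 (exact permutation p = 0.305, and 0.352 adjusted over 14 measures). Of the 14 markers 2, the opioid precursor genes Penk and Pdyn, were lower, 0 were higher, and none was at 0 in any group. At similar sums, wild types 1 and 3 (1450 and 1490 CPM) had 154 and 133 CPM of Scn4b, against 84.6 and 88.3 CPM in Q140 animals 1 and 2 (1420 and 1500 CPM). Wild type 4 had 88.0 CPM of Scn4b at a sum of 1030 CPM. Q140 animals 3 and 4 had 66.9 and 95.6 CPM at 1260 and 1300 CPM. The sum includes Penk and Pdyn, which were lower in Q140, so similar sums need not mean similar striatal content. Striatal tissue in the dissections and its part in the Scn4b values was not tested. In bulk tissue, fewer cells of a type and less RNA per cell cannot be told apart.

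**Figure D3:**
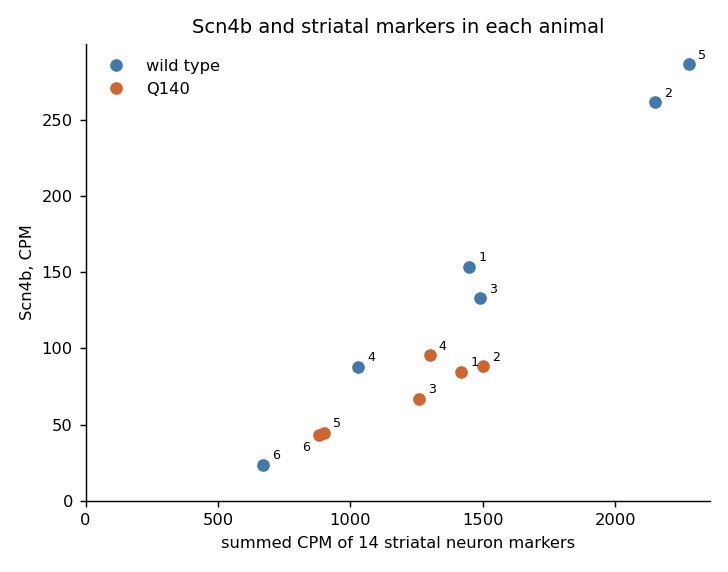
Scn4b in CPM against the summed CPM of 14 striatal neuron markers, 1 point per animal, numbered by replicate, wild types in blue and Q140 in orange. Wild type 6 lies lowest on both axes and wild types 2 and 5 highest. Q140 animals 1 and 2 lie below wild types 1 and 3 at similar marker sums. At sums higher than that of wild type 4, Q140 animal 4 lies slightly above it and Q140 animal 3 below it.

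Both of the abundant L-type pores fell. Of 3 tested Cav1 genes 2 fell, 0 rose and 1 did not pass. Cacna1c, the gene of Cav1.2, the main L-type channel of cortex, spans chromosome 6 from 118587240 to 119196418. It had wild type values of 147, 162 and 169 CPM (lowest, median, highest). Q140 values were 115, 126 and 143 CPM, with no overlap. Its mean fell from 159 ± 8.51 to 128 ± 10.9 CPM (SD, n = 6 each), and the fit gave -0.31 on the log2 scale (SE 0.0569, adjusted p = 0.00379 by edgeR). Cacna1d, the gene of Cav1.3, which opens at lower voltage, had 77, 81.5 and 85.4 CPM in wild types against 61.8, 67.9 and 79.6 CPM in Q140. Only the highest Q140 animal, number 5, reached into the wild type range. In log2 terms the difference was -0.25 (SE 0.0549, adjusted p = 0.0106 by edgeR). Of the exon bases of Cacna1d, 4.7% are shared with Chdh on the opposite strand, which had a log2 fold change of 1.05. Cacna1s, of skeletal muscle, was present at 6.03 ± 0.46 and 5.33 ± 0.957 CPM (log2 fold change -0.18, adjusted p = 0.33). An antisense gene overlaps 20% of its exon bases, so that value is uncertain.

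The Cav2 pores, which trigger release at synapses, were negative throughout, with 2 of 3 past the threshold, 0 higher and 1 that did not pass. Cacna1e, the gene of the R-type channel Cav2.3 (chromosome 1, 154390731 to 154884501), fell by 21%. It had 495, 520 and 559 CPM as lowest, median and highest wild type values and 350, 413 and 473 CPM in Q140. The lowest wild type thus stood above the highest Q140 animal. This was a log2 difference of -0.34 (SE 0.0641, adjusted p = 0.00458 by edgeR). Its share of summed Cav2 FPKM was 34 ± 0.973% in wild types and 31.3 ± 1.43% in Q140, a difference that was not tested.

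Cacna1a, the gene of the P/Q-type channel Cav2.1, had 223, 255 and 273 CPM in wild types against 207, 226 and 234 CPM in Q140. Only wild type 4, the lowest, lay within the Q140 range. The fitted log2 ratio was -0.18 (SE 0.0521, adjusted p = 0.0369 by edgeR). An antisense gene, Gm16183, shares 3.8% of its exon bases. Cacna1a passed in 11 of 27 alternative analyses, and it was lost without any 1 of Q140 animals 1 to 4 or wild types 1, 2, 3 and 5 (-0.19 to -0.16). Cacna1b, the gene of the N-type channel Cav2.2, had 183 ± 11.7 and 164 ± 11.9 CPM (log2 fold change -0.16, SE 0.0547, edgeR adjusted p = 0.0843). Its Q140 animal 5, at 187 CPM, stood above the other 5, and without it the log2 fold change was -0.20 (adjusted p = 0.009). With limma voom on all animals the adjusted p was 0.0439. Cacna1b passed only in these 2 of 27 alternative analyses.

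No T-type pore passed. Of 3 Cav3 genes 0 fell and 0 rose, and 0 had an unadjusted p under 0.05. Cacna1h, the most abundant and the one with the smallest p, had 103, 125 and 146 CPM as lowest, median and highest wild type values and 99.5, 110 and 123 CPM in Q140, with broad overlap. Its log2 fold change was -0.17 (SE 0.085, edgeR adjusted p = 0.225). Cacna1i and Cacna1g were at -0.02 (95% interval -0.20 to 0.16) and -0.11 (-0.36 to 0.14). A Cacna1i fall as large as that of Cacna1c or Cacna1e lies outside its interval.

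Among auxiliary calcium channel subunits the beta genes fell in part and the alpha2delta genes did not pass. Of 4 beta subunit genes 2 fell, 0 rose and 2 did not pass. Cacnb3, the most abundant, whose product serves Cav1 and Cav2 pores in forebrain, had 263, 287 and 330 CPM in wild types against 232, 243 and 264 CPM in Q140. The ranges met at a single animal, with the highest Q140 animal just above the lowest wild type. In log2 terms the difference was -0.25 (SE 0.052, adjusted p = 0.00833 by edgeR). Cacnb1, first known from muscle and also neuronal, had 133, 142 and 168 CPM in wild types against 116, 126 and 132 CPM in Q140. The highest Q140 animal lay just below the lowest wild type, and the log2 fold change was -0.21 (SE 0.0463, edgeR adjusted p = 0.011). Cacnb2 was at -0.10 (SE 0.0433, edgeR adjusted p = 0.161), from 55.3 ± 3.23 to 51.6 ± 2.78 CPM. Cacnb4, the beta subunit of cerebellar and thalamic neurons, was at -0.11 (adjusted p = 0.23), and 16% of its exon bases are shared with an opposite-strand gene.

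The alpha2delta subunits, targets of the gabapentinoid drugs in the case of Cacna2d1 and Cacna2d2, gave 0 calls in 4. An unadjusted p under 0.05 was found for 1, against 4728 of all 17725 genes. Cacna2d1 had 263, 300 and 332 CPM as lowest, median and highest wild type values and 219, 253 and 299 CPM in Q140, with overlap. This was a log2 difference of -0.24 (SE 0.0779, adjusted p = 0.0668 by edgeR), a size like that of Cacna1d with a wider spread. DESeq2 gave it an adjusted p of 0.0312, and edgeR without an expression filter 0.0321. Without Q140 animal 5 it was -0.29 (adjusted p = 0.0181), and without wild type 5 it was -0.28 (adjusted p = 0.0408). Cacna2d1 passed only in these 4 of 27 alternative analyses. Cacna2d2 was positive at 0.10 (SE 0.148), Cacna2d3 at -0.09 and the scarce Cacna2d4 at -0.02.

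**Figure D4:**
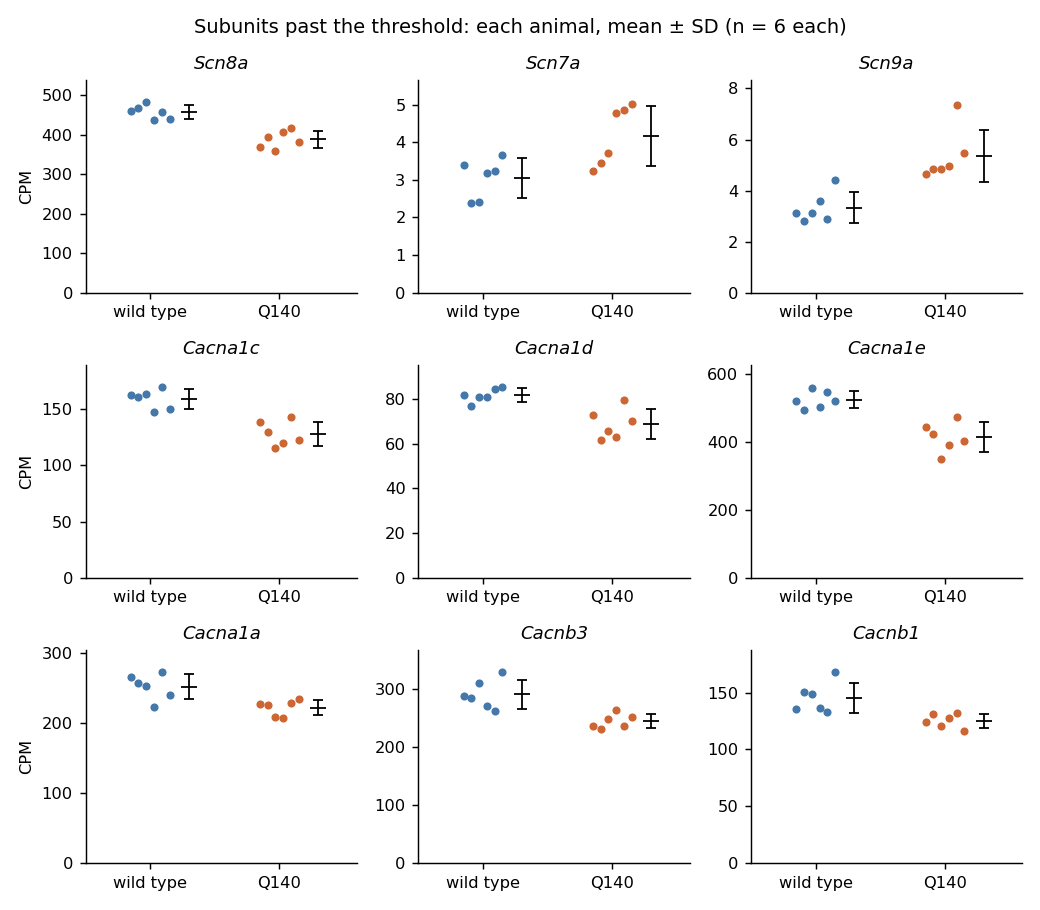
CPM of each animal for the 9 subunits that passed, wild types in blue and Q140 in orange, with the mean ± SD (n = 6 each) beside the points and each axis starting at 0. The genotypes do not overlap in Scn8a, Cacna1c, Cacna1e, Cacnb1 and Scn9a.

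Single animals bore on several of these values. Q140 animal 5 was the highest of its genotype in 11 of the 28 tested subunits and in 5 of the 7 that fell. Q140 animal 3 was the lowest in 10 of 28. Wild type 6 was the highest of its genotype in 11 of 28 and the lowest in 7. Without wild types 3 and 6 together, chosen after seeing the data, 4 subunits fell (Cacna1c, Cacna1e, Scn8a and Scn4b) and 1 rose (Scn9a). Cacna1d (-0.21), Cacnb1 (-0.17), Cacnb3 (-0.18) and Cacna1a (-0.20) then kept their sign but missed the threshold (adjusted p from 0.0579 to 0.093).

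With the name prefix of the animals as an added term, which leaves the 9 libraries of the prefixes that hold both genotypes, 0 subunits passed in either direction, as did few genes of the whole table (63 lower and 18 higher). The log2 fold changes in that fit were -0.36 for Cacna1e, -0.32 for Cacna1c, -0.24 for Cacna1d, -0.20 for Scn8a, -0.18 for Cacnb1, -0.15 for Cacnb3 and -0.14 for Cacna1a. They were 0.74 for Scn9a and 0.75 for Scn7a. All had the sign of the full comparison, but these 9 libraries are among the 12 by which the subunits were picked. The shared sign is therefore not a separate test. Of these prefixes 1 held 4 wild types and 1 Q140 animal, and the other 1 wild type and 3 Q140 animals.

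Partner genes of the channels were described from lists. Over all genes tested 6.69% were lower and 4.5% higher, with a median log2 fold change of 0. Of 13 sodium channel partners 4 fell, 0 rose and 9 did not pass, with a median log2 fold change of -0.10. The intracellular fibroblast growth factor homologs Fgf14 (-0.27, SE 0.0631, adjusted p = 0.0152) and Fgf13 (-0.26, SE 0.0722, adjusted p = 0.0356), which bind the tail of sodium pores, and the adhesion molecule Nrcam (-0.22) were among them. The axon initial segment scaffolds Ank3 (-0.09) and Sptbn4 (-0.05) did not pass.

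Of 23 genes listed as calcium channel partners 22 were tested. Of these 5 fell, 0 rose and 17 did not pass, with a median of -0.06. The shares over all genes were 6.69% lower and 4.5% higher, with a median of 0. The list is broad: it also holds the gamma genes Cacng1 to Cacng8, and Nalcn, Unc79, Unc80 and Fam155a. Not all of them are partners of voltage-gated calcium channels. Rims1, an active zone protein that holds Cav2 channels at release sites, fell from 349 ± 33.1 to 267 ± 23.2 CPM (log2 fold change -0.39, SE 0.0674, edgeR adjusted p = 0.00293). Cacng6, a gamma subunit gene of low level, fell from 4.88 ± 0.418 to 2.87 ± 0.741 CPM (-0.78, SE 0.152, adjusted p = 0.00554). Cacng3 (-0.36), which acts on AMPA receptors, the calcium sensor Cabp1 (-0.35) and Unc80 (-0.24) fell as well. Rims2 (-0.13) and Rimbp2 (-0.19) did not pass.

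The falls of the neuronal channel genes stood beside lower excitatory neuron markers. Of 14 such markers 7 fell and 0 rose, and their sum was 7622 to 9536 CPM in wild types against 5966 to 6673 CPM in Q140, without overlap (exact permutation p = 0.00216, and 0.0151 adjusted over 14 measures). The sum of 14 inhibitory neuron markers was 945.3 to 1110 CPM in wild types against 781.7 to 973.7 CPM in Q140 (exact permutation p = 0.013, adjusted 0.0607). Of these 14 markers 4 were lower (Sst, Lamp5, Lhx6 and Adarb2), 0 were higher and 10 did not pass. By sign 11 were negative and 3 positive. Those that did not pass include Gad1 (-0.03), Gad2 (0.02), Slc32a1 (0.24) and Pvalb (0.15). Over all genes tested 6.69% were lower and 4.5% higher. None of the markers in either list was at 0 in any group. Their part in the channel values was not tested.

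No difference between the sexes in the Q140 effect was detected for any subunit. In females 5 subunits were lower (Cacnb3, Cacnb1, Scn8a, Cacna1d and Cacna1b) and 0 higher. Of all 17725 genes 747 were lower and 502 higher in females, or 7.05% past the threshold in either direction. In males 0 were lower and 1, Scn9a, was higher (log2 fold change 0.89, SE 0.192, edgeR adjusted p = 0.0411). Of all genes 170 were lower and 78 higher in males, or 1.4% in either direction. At an unadjusted p under 0.05 there were 13 subunits in females and 14 in males, against 4202 and 2940 of all 17725 genes. The tested difference between the sexes passed for 0 of 28 subunits and 0% of all genes by edgeR. At an unadjusted p under 0.05 it gave 1 subunit, Cacnb4 (unadjusted p = 0.0453), and 1633 of 17725 genes. Fold changes were alike in size for Cacna1e (-0.32 in females, -0.36 in males), Cacna1c (-0.29 and -0.34), Scn8a (-0.25 and -0.23) and Scn7a (0.44 and 0.47). For Cacnb3 they were -0.34 and -0.16, and for Scn4b -0.64 and -1.77.

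With 3 animals of each sex and genotype these counts rest on few animals. The female count fell to 0 without Q140 animal 2 and to 2 without Q140 animal 1, wild type 3 or wild type 6, and was 8 without Q140 animal 5. The Scn9a call in males was lost without any 1 of the Q140 animals or of wild types 1, 3, 4 and 5. In males 4 subunits were lower without Q140 animal 5 and 1 without wild type 6. Males and females of both genotypes together differed in 0 of 28 subunits by edgeR, against 0.654% of all genes. An unadjusted p under 0.05 was found for 4 subunits, against 2387 of all 17725 genes.

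**Figure D5:**
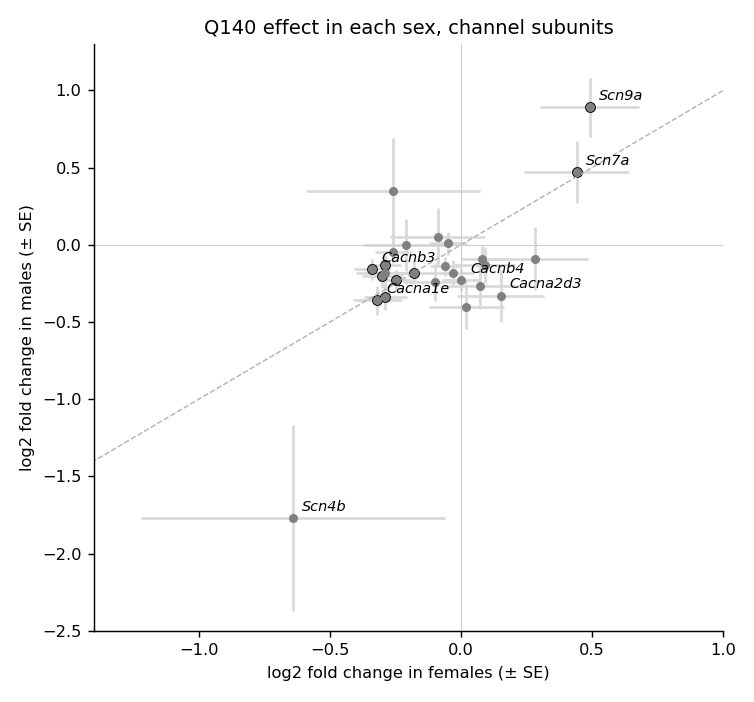
Log2 fold change of Q140 against wild type in males against that in females for tested subunits, with bars of 1 SE. Black points passed in the comparison of both sexes together and the others are grey. The dashed line marks equal effects. Scn9a and Scn7a are positive in both sexes, and Scn4b is lowest in both.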

How the data were processed

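RNA of 12 animals was extracted with a Qiagen RNeasy kit and made into Illumina TruSeq stranded libraries, per the labels' protocols. The deposited counts are whole reads per gene with no scaling. Tools in the submitters' processing notes are HTSeq 0.12.3, STAR 2.7.5c and SAMtools 1.10, with builds GRCm38 and mm10. The deposited FPKM equal each count divided by a gene length and the column total: over 15054 genes the implied length varied by at most 5.6e-07% between animals. Neither annotation release nor strand setting is given in the sources used here.

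Counts were tested with edgeR 4.0.16 (R 4.3.3): TMM, default expression filter by genotype, quasi-likelihood test with sex as covariate, two-sided, Benjamini-Hochberg over 17725 genes, threshold 0.05. Effects within each sex and their difference came from a model of the genotype and sex groups. CPM use TMM-scaled totals. Summed marker levels (11 lists) had exact permutation tests, two-sided. Genes given with all values were those that passed and, in each class, the most abundant and the one with the smallest p; others were given by level or range. Some genes that this rule names are not reported here. The members, lists and rules were chosen with earlier results of these data known. Positions came from GENCODE M21. The fit was tested on simulated counts. Alternatives used other size factors, filters and covariates, DESeq2 1.42.0, limma 3.58.1, length and GC offsets, and fits without each animal.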

Additional observations from a re-analysis of the deposited data

Results flagged for a closer look

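In 3 of 78 groups of 6 animals, over the tested subunits and the measures above, 1 animal stood apart by the size of its gap to the next, which chance gives in about 1 in 20 groups. For Cacna1b it was Q140 animal 5, at 187 CPM, above the other Q140 animals at 153 to 163 CPM. For Scn9a it was also Q140 animal 5, at 7.35 CPM, where the others had 4.65 to 5.46 CPM. The summed skeletal muscle markers were highest in Q140 animal 3, at 6.48 CPM, against 4.88 to 5.46 CPM in the others.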

How the results depend on the processing

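The comparison of both sexes together was recomputed under 27 alternatives, in which no subunit that passed changed direction. Counts within a sex were recomputed with other size factors, no filter and each animal left out. Of the subunits that passed, Cacna1c, Cacna1e, Scn8a and Scn9a each passed in 25, Cacna1d, Cacnb1 and Cacnb3 in 24, Scn7a in 14 and Cacna1a in 11. With the name prefix as a term over 9 libraries, 0 subunits were lower and 0 higher, and 63 and 18 of all genes. Without wild types 3 and 6, an alternative chosen after seeing the data, these were 4 and 1 subunits and 562 and 300 genes. With no covariate 1 subunit was higher. On the total count alone 822 genes were lower and 1624 higher, against 1185 and 797, and on log2 FPKM 751 and 1570 (pseudocount 0.1) or 743 and 1568 (pseudocount 1). There 6 subunits were lower and 2 higher. Their median was -0.066 with the larger pseudocount, against -0.134. With no filter beyond 1 read 8 subunits were lower in females and 3 in males. Leaving out each animal gave 6 to 10 subunits lower and 1 to 2 higher, a median of -0.162 to -0.121, and 727 to 1430 genes lower and 412 to 1074 higher. Within females 0 to 8 were lower, and within males 0 to 4 lower and 0 to 1 higher. The cause of these changes was not tested, beyond the fewer animals fitted. The labels give no replicate numbers, but 2 numbers in the animals' names occur in both genotypes, with no stated meaning. With that number as a replicate block over these 5 libraries (2 wild-type and 3 Q140), also chosen after seeing the data, 0 subunits were lower and 0 higher in edgeR (3 and 2 at an unadjusted p under 0.05; no other tool was run), 0 and 1 of all genes, and the subunit median was -0.089. Depth limits Scn10a, with 83 and 92 reads, and the 3 untested subunits.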
